A study of Homo sapiens with 34 samples.

Results

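The HOX genes of the 4 human clusters, HOXA, HOXB, HOXC and HOXD, were described in 3 liver cancer lines before and after the DNA methyltransferase inhibitor SGI-110. Members were all probes of the deposited table whose gene symbol is HOXA, HOXB, HOXC or HOXD followed by a number alone. This rule found 36 of 47230 probes, for 29 of the 20046 genes on the array. The RefSeq gene table lists 39 HOX genes, 11 in the HOXA cluster on chromosome 7, 10 in HOXB on chromosome 17, 9 in HOXC on chromosome 12 and 9 in HOXD on chromosome 2. All genes of HOXB, HOXC and HOXD had a probe, and HOXA was represented by HOXA2 alone. The other HOXA genes were not analysed here. Of the 29 genes, 26 were tested, having a probe above background on both arrays of at least 1 group, as were 15298 of all genes on the array. The 3 members left out, HOXB9, HOXC12 and HOXD12, were not above background in any group, so the 26 are not all members.

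HOX genes encode homeodomain transcription factors that give cells their position along the body axis. Within a cluster the genes lie in the order in which they are used from head to tail, and genes of the same number in different clusters are paralogues. They bind DNA together with cofactors of the PBX, MEIS and PKNOX families, and their expression is kept on by trithorax and kept off by Polycomb proteins, while retinoic acid turns on genes at the anterior end. Many HOX promoters lie in CpG islands, and adult tissues and tumours differ in which HOX genes they express. Below, genes numbered 1 to 3 are called anterior, 4 to 8 central and 9 to 13 posterior.

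The series holds 34 Illumina arrays in 17 groups of 2. Cells were treated with 100 nM SGI-110 on 3 consecutive days (72 h of exposure in all). HepG2 and SNU398 were sampled at days 3, 10, 17 and 24, and SNU475 also at days 31 and 56, and each was compared with its own untreated cells. All 3 are lines bought from ATCC, and no group carries an introduced gene or a deletion according to the labels. Nothing in the labels states whether both arrays of a group had their own culture, and p-values therefore measure only how far these samples spread, possibly for technical reasons. No untreated cells were sampled at later days, and a change with treatment cannot be told apart from a change with time in culture. In bulk RNA, fewer cells with a transcript and less of it per cell cannot be told apart. A level is a normalized log2 intensity of 1 probe. Levels of different probes are not comparable, so genes and clusters are compared by how many were above background and by differences within a probe. A gene was called higher or lower at an adjusted p under 0.05 over all 15298 genes of the comparison.

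The lines differed in identity, and the deposited arrays fell into 3 sets. All 5 measured hepatocyte markers (ALB, AFP, APOA1, TTR and SERPINA1) were higher in untreated HepG2 than in either other line, for example TTR with 14.05 and 13.77 in HepG2, against 6.70 and 6.86 in SNU398 and 6.73 and 6.74 in SNU475, where it was not above background. The 4 mesenchymal markers did not move as 1 group. VIM, an intermediate filament, had 9.57 and 9.56 in untreated HepG2, against 15.16 and 14.79 in SNU398 and 15.01 and 15.15 in SNU475, while FN1 was at least 3.47-fold higher in HepG2 than in SNU398 and CDH2 and ZEB1 did not pass that test (list median -0.15). Against SNU475, VIM, CDH2 and ZEB1 were lower in HepG2 and FN1 did not pass. Of the blood and endothelial markers, PTPRC, CD3E and CDH5 were not above background in any group, HBB was in 1 group (untreated SNU398) and PECAM1 in 3. PECAM1 was called higher in HepG2 at days 17 and 24 (log2 1.12 and 0.77), and HBB was called higher in untreated SNU398 than in SNU475 (log2 0.55). By their intensity distribution, the first set holds HepG2 and untreated SNU398, the second treated SNU398 with SNU475 untreated and at day 3, and the third SNU475 from day 10 on. No group lies in more than 1 set. For treated SNU398 and for SNU475 from day 10 on, the untreated arrays belong to a different set, and treatment and set cannot be told apart there. All comparisons of treated with untreated HepG2 lie within a set. So do untreated HepG2 against untreated SNU398, SNU475 at day 3 and the comparisons of late days with day 10.

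SGI-110 inhibits the enzymes that methylate CG dinucleotides, and the CG content of HOX promoters is given first. Neither methylation nor binding was measured in the files used here. The RefSeq promoter table (GRCh38.p14) held an entry for 12 of the 29 genes, and the 250 bases before the transcription start were searched on both strands. These 3 HOXD promoters are shown because they belong to HOXD1, which was higher in HepG2 than in both SNU lines, HOXD4, a neighbour that was also higher in HepG2 than in SNU398, and HOXD13, the gene at the posterior end of the cluster. The HOXD1 window lies at chr2:176188418-176188667, HOXD4 at chr2:176151300-176151549 and HOXD13 at chr2:176092471-176092720, all on the + strand and written 5′ to 3′ with each CG in capitals.
HOXD1: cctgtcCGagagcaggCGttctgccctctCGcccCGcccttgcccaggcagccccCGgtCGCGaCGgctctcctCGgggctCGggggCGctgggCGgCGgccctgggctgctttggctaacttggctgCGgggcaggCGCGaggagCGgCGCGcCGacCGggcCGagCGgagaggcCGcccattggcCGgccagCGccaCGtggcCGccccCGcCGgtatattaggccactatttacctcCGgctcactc
HOXD4: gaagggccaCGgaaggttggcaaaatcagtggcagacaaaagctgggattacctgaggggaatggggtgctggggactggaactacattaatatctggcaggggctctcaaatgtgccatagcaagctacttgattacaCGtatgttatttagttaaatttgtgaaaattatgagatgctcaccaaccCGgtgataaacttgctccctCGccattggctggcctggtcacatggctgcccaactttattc
HOXD13: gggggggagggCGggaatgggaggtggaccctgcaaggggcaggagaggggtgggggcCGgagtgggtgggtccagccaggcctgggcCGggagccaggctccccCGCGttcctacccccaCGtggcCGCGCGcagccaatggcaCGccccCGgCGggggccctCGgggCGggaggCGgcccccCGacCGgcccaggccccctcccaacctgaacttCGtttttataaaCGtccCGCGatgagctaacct
The HOXD1 window holds 31 CG, more than 89.1% of 35116 promoters, whose median is 11. HOXD13 has 21 and HOXD4 has 4, more than 29.3% of promoters. Among the other entries the count ran to 28 in HOXD8 and was lowest in HOXB1, with 7. The TATA box TATAAA was found in the HOXD13 window, with 2 overlapping matches on opposite strands of the stretch tttttataaa, and in 10.7% of all promoters. TGATNNAT, a motif bound by PBX with a HOX protein, was found once each in HOXA2, HOXB1 and HOXD11 and in 6.47% of all promoters.

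In untreated HepG2 few HOX genes and 1 posterior one were above background, while in both SNU lines most genes of the measured clusters were. In HepG2, 9 of 29 HOX genes were above background (HOXA2, HOXB5, HOXB6, HOXC4, HOXC6, HOXC13, HOXD1, HOXD3 and HOXD4), against 22 in SNU398 and 22 in SNU475. Over all genes on the array the share above background was alike, 57.3% in HepG2, 58% in SNU398 and 59.1% in SNU475. By position, HepG2 had 3 of 6 anterior, 5 of 11 central and 1 of 12 posterior genes above background. SNU398 had 3, 10 and 9, and SNU475 had 5, 10 and 7. The posterior gene above background in HepG2 was HOXC13, known for its role in hair and nails. HOXB6, HOXC6 and HOXC13 were above background in all 17 groups.

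**Figure D1:**
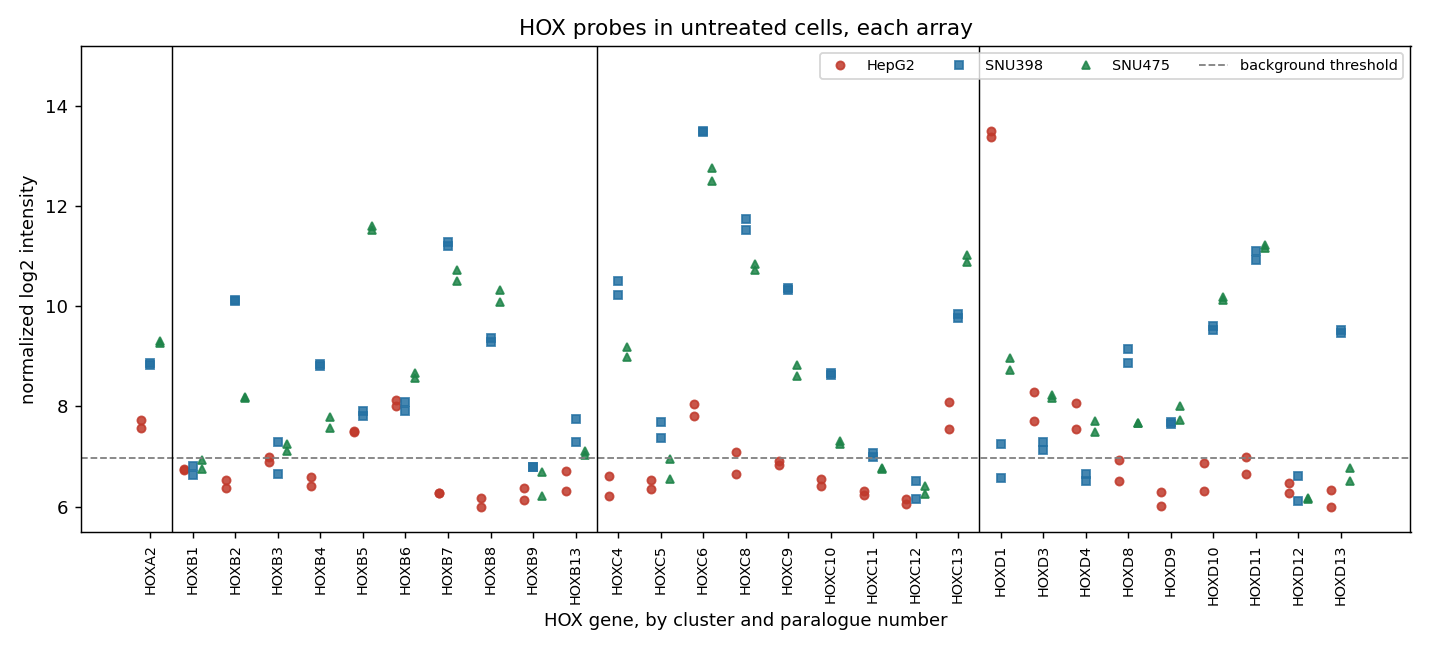
Normalized log2 intensity (y axis) of the probe that stands for each of 29 HOX genes (x axis, by cluster and number) on the 2 untreated arrays of HepG2, SNU398 and SNU475, with the background threshold dashed. HepG2 lies near the threshold for most genes and far above the other lines for HOXD1, and heights of different genes are not comparable.

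Compared with SNU398, untreated HepG2 had 3 of the 26 tested HOX genes higher and 20 lower (58.5% of all genes called, 27% as higher and 31.5% as lower). The median difference over the 26 was -2.07 on the log2 scale, beside -0.03 over all genes. Compared with SNU475, 1 was higher and 20 lower (58.8% of all genes called, 28.4% as higher and 30.3% as lower), with a median of -1.41 beside -0.01 over all genes. The 26 include genes that passed the filter through the SNU lines alone, so these counts and medians are a description. All 9 tested posterior genes were lower in HepG2 in both comparisons, although HOXC11 and HOXD13 were below background in both HepG2 and SNU475. By cluster, HOXC had 8 of 8 lower than in SNU398 and 7 of 8 lower than in SNU475. HOXB had 6 and 7 of 9 lower, and HOXD had 5 of 8 lower in both comparisons. Between the SNU lines the calls went both ways, with 12 higher and 9 lower in SNU398 than in SNU475 (60.1% of all genes called, 31.3% as higher and 28.7% as lower). The comparisons with SNU475 cross array sets. The 3 comparisons share their untreated arrays, so their counts are not independent.

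HOXD11, a gene of forearm and hindlimb patterning, had 6.997 and 6.66 in HepG2, against 11.11 and 10.92 in SNU398 and 11.23 and 11.16 in SNU475. It was at least 16.3-fold lower in HepG2 than in SNU398 (log2 -4.18, SE 0.17, adjusted p 5.42e-19) and at least 18.4-fold lower than in SNU475 (log2 -4.36, SE 0.17, adjusted p 2.12e-19). Here 1 of 2 HepG2 arrays was above background, so the folds are lower bounds. Wherever a dim group lacked 2 arrays above the background threshold of 6.974, each of its arrays entered the fold at no less than that threshold. HOXC9, used in the thoracic spinal cord, had 6.92 and 6.84 in HepG2, against 10.37 and 10.32 in SNU398 and 8.82 and 8.60 in SNU475. The 3 lines did not overlap, and HepG2 was at least 10.3-fold lower than SNU398 (adjusted p 1.7e-19) and at least 3.33-fold lower than SNU475 (adjusted p 7.48e-13). HOXD10 had 6.88 and 6.32 in HepG2, against 9.61 and 9.53 in SNU398 and 10.19 and 10.13 in SNU475. HOXD13, the digit gene at the posterior end of its cluster, had 6.34 and 5.99 in HepG2, 9.48 and 9.53 in SNU398 and 6.76 and 6.51 in SNU475. It was above background in SNU398 alone among the untreated lines, at least 5.77-fold higher there than in SNU475 (log2 2.87, SE 0.17, adjusted p 8.2e-15). HOXC10, expressed in lumbar motor neurons, was at least 3.19-fold lower in HepG2 than in SNU398 and at least 1.24-fold lower than in SNU475. HOXC13 was brightest in SNU475, with 8.09 and 7.56 in HepG2, 9.84 and 9.76 in SNU398 and 11.03 and 10.88 in SNU475. HepG2 was 8.76-fold lower than SNU475 and 3.93-fold lower than SNU398 for it. HOXD9 and HOXB13, a gene known from the prostate, were also lower in HepG2, by at least 1.62-fold and at least 1.46-fold against SNU398.

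The central genes HOXC6, HOXB7 and HOXC8 were lower in HepG2 than in both SNU lines. HOXC6, known from mammary gland and thoracic patterning, had 8.04 and 7.81 in HepG2, against 13.48 and 13.50 in SNU398 and 12.77 and 12.50 in SNU475. HepG2 was 47.4-fold lower than SNU398 (log2 -5.57, SE 0.15, adjusted p 3.27e-23) and 26.1-fold lower than SNU475 (log2 -4.71, SE 0.15, adjusted p 1.86e-21). The other 2 kept HOXC6 probes were lower in HepG2 too but by less, with log2 differences of -0.80 and -1.88 against SNU398 and of -0.51 and -1.34 against SNU475. HOXB7 had 6.28 and 6.28 in HepG2, below background, against 11.21 and 11.29 in SNU398 and 10.73 and 10.51 in SNU475. That was at least 19.4-fold and at least 12.5-fold lower in HepG2. HOXC8 was at least 24.2-fold lower in HepG2 than in SNU398 and at least 13.5-fold lower than in SNU475. HOXB4, a gene of blood stem cells, HOXB8 and HOXD8 were lower in HepG2 in both comparisons as well, by at least 1.61-fold in each. HOXC4 depended on the probe. The probe that stands for it was at least 10.5-fold lower in HepG2 than in SNU398, and its second kept probe differed by 0.10 (adjusted p 0.623). That second probe is also what put HOXC4 above background in HepG2.

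HOXB5, which acts in lung and enteric nervous system development, divided the lines otherwise. It had 7.91 and 7.81 in SNU398, against 11.60 and 11.51 in SNU475, and HepG2 had 7.52 and 7.49. SNU398 was thus 13-fold below SNU475 (log2 -3.70, SE 0.13, adjusted p 2.42e-20), and HepG2 16.6-fold below it. HepG2 and SNU398 differed by -0.36 (adjusted p 0.0197), a call that was lost without either HepG2 array (adjusted p 0.0569 and 0.0758) or without the first SNU398 array (0.116). HOXB6 was 1.53-fold lower in SNU398 than in SNU475, and its second probe differed by -0.21 (adjusted p 0.396).

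HOXD1 was higher in HepG2 than in both SNU lines, and HOXD3 and HOXD4 were higher than in SNU398. HOXD1, the most anterior gene of its cluster, had 13.38 and 13.50 in HepG2, against 7.25 and 6.57 in SNU398 and 8.96 and 8.73 in SNU475. The HepG2 arrays lay far above all others, at least 80.7-fold higher than SNU398 (log2 6.54, SE 0.16, adjusted p 3.63e-24) and 24.2-fold higher than SNU475 (log2 4.60, SE 0.16, adjusted p 1.79e-20). In SNU398, 1 of the 2 arrays was above background. HOXD4, with the CG-poor window shown above, was at least 1.79-fold higher in HepG2 than in SNU398 (log2 1.23, SE 0.16, adjusted p 1.62e-07), and HOXD3 was 1.73-fold higher, a call lost without the second HepG2 array (adjusted p 0.0953). Neither HOXD3 nor HOXD4 passed the test against SNU475. HOXD8, HOXD9, HOXD10, HOXD11 and HOXD13, at the other end of the same cluster, were all lower in HepG2 than in SNU398. HOXA2, a gene of the hindbrain and the second pharyngeal arch, was 2.3-fold lower in HepG2 than in SNU398 and 3.12-fold lower than in SNU475. HOXB2, also a hindbrain gene, had 6.37 and 6.54 in HepG2, 10.12 and 10.11 in SNU398 and 8.17 and 8.18 in SNU475. Among the untreated lines it was above background in both SNU lines, and SNU398 was 3.84-fold higher than SNU475 (log2 1.94, SE 0.17, adjusted p 2.14e-11). By the probes that stand for them, HOXB1, HOXB3, HOXC11 and HOXD3 had no called difference of 2-fold or more in any of the 23 comparisons, and these genes were above background in 4, 11, 2 and 15 of 17 groups. The second kept HOXB3 probe was lower in HepG2 than in SNU475, by log2 -1.27 (adjusted p 4.25e-07).

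**Figure D2:**
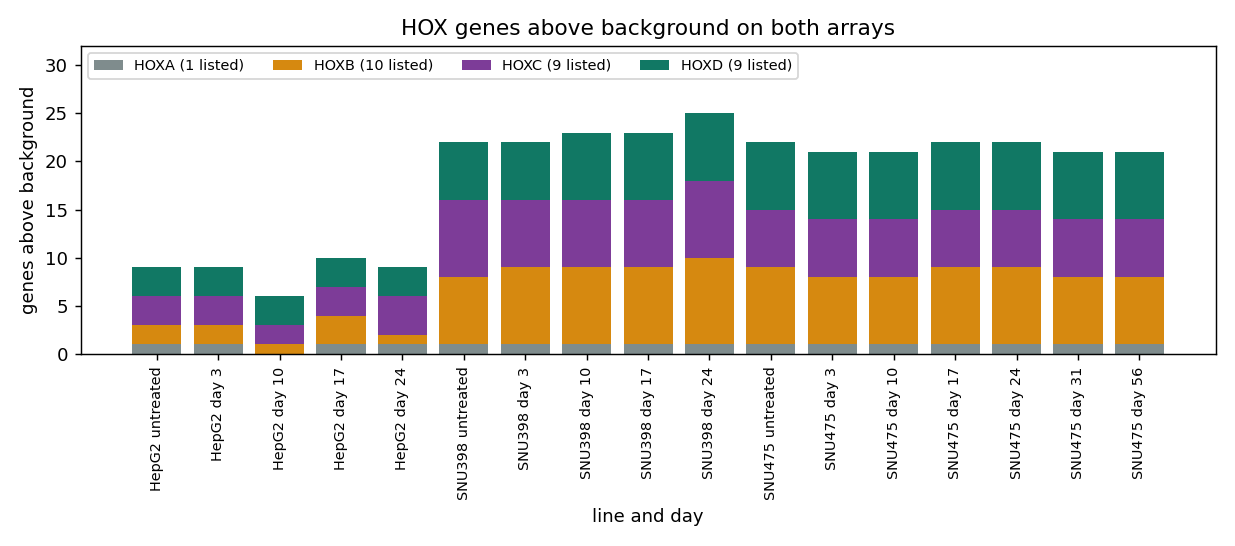
Number of HOX genes above background on both arrays (y axis, stacked by cluster) in each of the 17 line and day groups (x axis). HepG2 bars reach 6 to 10 of 29 genes, SNU398 bars 22 to 25 and SNU475 bars 21 or 22.

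After SGI-110, HepG2 still had few HOX genes above background. Their number was 9 at day 3, 6 at day 10, 10 at day 17 and 9 at day 24, against 9 in untreated cells. Few of the 26 tested HOX genes passed the test. At day 3, 2 were higher and 1 lower (14.7% of all genes called, 8.15% as higher and 6.54% as lower). At day 10, 0 were higher and 4 lower (32.8% of all genes called, 18.1% as higher and 14.7% as lower), and at day 17, 0 and 2 (25.8% of all genes called, 14.4% as higher and 11.4% as lower). At day 24, 1 was higher and 2 lower (26% of all genes called, 13.4% as higher and 12.6% as lower). In untreated HepG2, 17 of the 26 tested genes were not above background and had passed the filter through other groups, so nothing is read from the HOX share of 7.69% to 15.4% against that of all genes. No HOX gene changed 2-fold or more. The counts rest on single arrays: without the first untreated array they were 0 at day 3, 2 at day 10 and 0 at day 17. Day 17 also gave 1 without the second untreated array and 0 without either day 17 array.

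HOXC9 rose in HepG2 at day 24, the 1 posterior gene to do so. It had 7.67 and 7.61 at day 24, against 6.92 and 6.84 in untreated cells, where it was not above background, and was at least 1.59-fold higher (log2 0.76, SE 0.13, adjusted p 6.6e-05). The untreated SNU398 arrays, of the same array set, stood at 10.37 and 10.32. HOXD1, already bright, had 12.67 and 12.84 at day 24, against 13.38 and 13.50 in untreated cells, and fell 1.61-fold (log2 -0.69, SE 0.16, adjusted p 0.00175). At day 3 it had been 1.47-fold higher (adjusted p 0.0178), a call lost without the first untreated array (adjusted p 0.124) or the second day 3 array (0.198). HOXD4 had 7.03 and 6.98 at day 10, against 8.08 and 7.55 in untreated cells, and fell 1.75-fold (log2 -0.81, SE 0.16, adjusted p 0.000264). HOXB5 was called lower on days 10, 17 and 24, with log2 differences of -0.36, -0.42 and -0.46. None of these 3 calls held without the first untreated array (adjusted p 0.125, 0.078 and 0.0532). The other 5 calls, HOXB4 and HOXC6 at day 3, HOXA2 at day 10 and HOXD8 at days 10 and 17, lay between -0.51 and 0.51 and were each lost when 1 array or another was left out. HOXB4 and HOXD8 were not above background on either side, and a second HOXC6 probe went the other way (0.53).

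**Figure D3:**
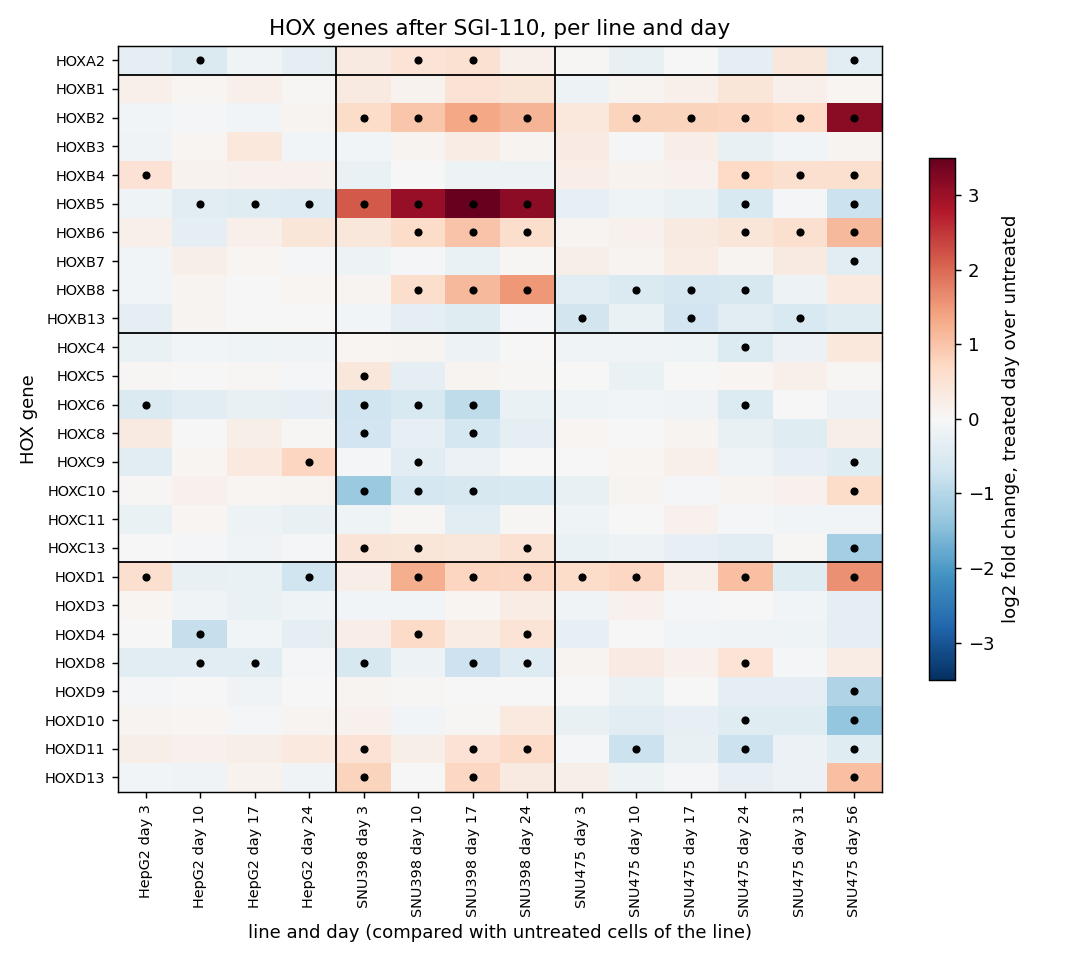
Log2 fold change of 26 HOX genes (rows, by cluster) on each treated day over untreated cells of the same line (columns), with a dot where the adjusted p was under 0.05. HOXB5 in SNU398 and HOXB2 at day 56 in SNU475 stand out as the strongest increases, at 3.05 to 3.53 from day 10 on and at 3.15.

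In SNU398 the HOXB genes HOXB5, HOXB8 and HOXB2 rose while some HOXC genes fell. At day 3, 6 of 26 HOX genes were higher and 4 lower (33.5% of all genes called, 17% as higher and 16.5% as lower). At day 10 the counts were 8 and 3 (35.4% of all genes called, 20% as higher and 15.4% as lower), at day 17 they were 8 and 4 (34.5% of all genes called, 18.2% as higher and 16.3% as lower), and at day 24 they were 8 and 1 (19.9% of all genes called, 11% as higher and 8.9% as lower). The HOX share was 34.6% to 46.2%, beside 19.9% to 35.4% of all genes, a difference that was not tested. Untreated SNU398 had 22 of 29 HOX genes above background, beside 58% of all genes on the array. Nothing is therefore read from the HOX share against that of all genes. Of the 9 tested HOXB genes 2, 4, 4 and 4 were higher on the 4 days and none was lower. Of the 8 tested HOXC genes 2, 1, 0 and 1 were higher and 3, 3, 3 and 0 lower. VIM was called higher on all 4 days (log2 0.36 to 0.47) and HBB lower (-0.65 to -0.50), and their part in the HOX counts was not tested. These comparisons cross array sets, and the split moved with the scaling. With median scaling it was 8 higher and 4 lower, 8 and 1, 10 and 3, and 11 and 0 on the 4 days. Without further normalization it was 8 and 4, 8 and 1, 9 and 4, and 8 and 0. Leaving out the second untreated array gave 6 calls at day 3 and 4 at day 24, and leaving out the second day 10 array gave 7 at day 10.

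HOXB5 changed most. It had 9.91 and 10.12 at day 3, 10.94 and 10.89 at day 10, 11.29 and 11.48 at day 17 and 11.13 and 10.86 at day 24, against 7.91 and 7.81 in untreated SNU398. All 8 treated arrays lay above both untreated ones, and from day 10 on they came close to untreated SNU475 (11.60 and 11.51). The increase was 4.44-fold at day 3 (log2 2.15, SE 0.13, adjusted p 3.04e-13), 8.31-fold at day 10, 11.5-fold at day 17 (log2 3.53, SE 0.13, adjusted p 3.43e-18) and 8.78-fold at day 24. With median scaling the all-gene median lay at 0.09 to 0.12 on these days. HOXB8, a central gene, had 9.98 and 9.89 at day 10, 10.40 and 10.50 at day 17 and 10.77 and 10.89 at day 24, against 9.28 and 9.36 in untreated cells. These arrays lay above both untreated ones, and the rise was 1.53-fold, 2.18-fold and 2.85-fold (adjusted p 0.00141, 5.16e-07 and 6.3e-09). Day 3, with 9.48 and 9.34, did not pass the test. HOXB2 had 10.66 and 10.84 at day 3, 11.24 and 10.90 at day 10, 11.72 and 11.23 at day 17 and 11.31 and 11.32 at day 24, against 10.12 and 10.11 in untreated cells. It was called on all 4 days, from 1.56-fold at day 3 (log2 0.64, SE 0.17, adjusted p 0.00334) to 2.57-fold at day 17 (log2 1.36, SE 0.17, adjusted p 1.89e-07).

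Other HOXB genes were less clear. HOXB6 was called higher at days 10, 17 and 24, by 1.57-fold, 1.99-fold and 1.54-fold. Its second kept probe went the other way at days 10 and 17 (-0.28 and -0.31, adjusted p 0.305 and 0.254), and with the mean of both probes the calls at days 10 and 24 were lost (adjusted p 0.271 and 0.0735). HOXB3 was not called by the probe that stands for it, while its second kept probe was higher by 0.60, 0.59 and 0.63 at days 10, 17 and 24 (adjusted p 0.00994, 0.0111 and 0.0136). That probe had 7.20 and 6.54 in untreated SNU398, the second below background, against 7.49 and 7.52 at day 24. HOXB4, HOXB7 and HOXB13 were not called on any day in SNU398.

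HOXC10, HOXC6 and HOXC8 fell in SNU398 at day 3. HOXC10 had 6.98 and 7.69 at day 3, 8.06 and 7.98 at day 10, 8.36 and 7.84 at day 17 and 8.22 and 8.01 at day 24, against 8.66 and 8.63 in untreated SNU398. All treated arrays lay below the untreated ones, those of day 3 lowest. The decrease was 2.48-fold at day 3 (log2 -1.31, SE 0.20, adjusted p 8.9e-06). The calls at days 10 and 17 were lost without the first untreated array (adjusted p 0.0721 and 0.124), and day 24 did not pass. HOXC6 had 12.89 and 12.71 at day 3, 12.99 and 12.93 at day 10 and 12.51 and 12.71 at day 17, against 13.48 and 13.50 in untreated cells. It fell on these 3 days, by 0.69, 0.53 and 0.88 on the log2 scale (adjusted p 0.000642, 0.00648 and 3.53e-05). Of its other probes, 1 was lower on all 4 days (-0.46 to -0.67) and 1 was not called on any. HOXC8 fell 1.58-fold at day 3 (adjusted p 0.0023).

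HOXD genes in SNU398 moved in both directions. HOXD1, near background in untreated cells at 7.25 and 6.57, had 8.19 and 8.14 at day 10, 7.65 and 7.65 at day 17 and 7.81 and 7.46 at day 24. Both arrays of these days lay above both untreated ones. The increase was at least 2.08-fold at day 10 (log2 1.26, SE 0.16, adjusted p 3.63e-07). At days 17 and 24 the calls were lost without the second, dimmer untreated array (adjusted p 0.0741 and 0.132). HOXD13 had 10.31 and 10.28 at day 3 and 10.24 and 10.25 at day 17, against 9.48 and 9.53 in untreated cells. It rose 1.73-fold at day 3 and 1.67-fold at day 17 (adjusted p 0.000628 and 0.00121), whereas day 10, with 9.58 and 9.44, overlapped the untreated arrays and did not pass. HOXD8, with the CG-rich window named above, fell 1.67-fold at day 17 (log2 -0.74, SE 0.14, adjusted p 0.000133). The remaining calls in SNU398, of HOXA2, HOXC5, HOXC9, HOXC13, HOXD4 and HOXD11, of HOXC8 at day 17 and of HOXD8 at days 3 and 24, lay between -0.62 and 0.67 on the log2 scale. All but that of HOXD4 at day 10 were lost when 1 array or another was left out.

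**Figure D4:**
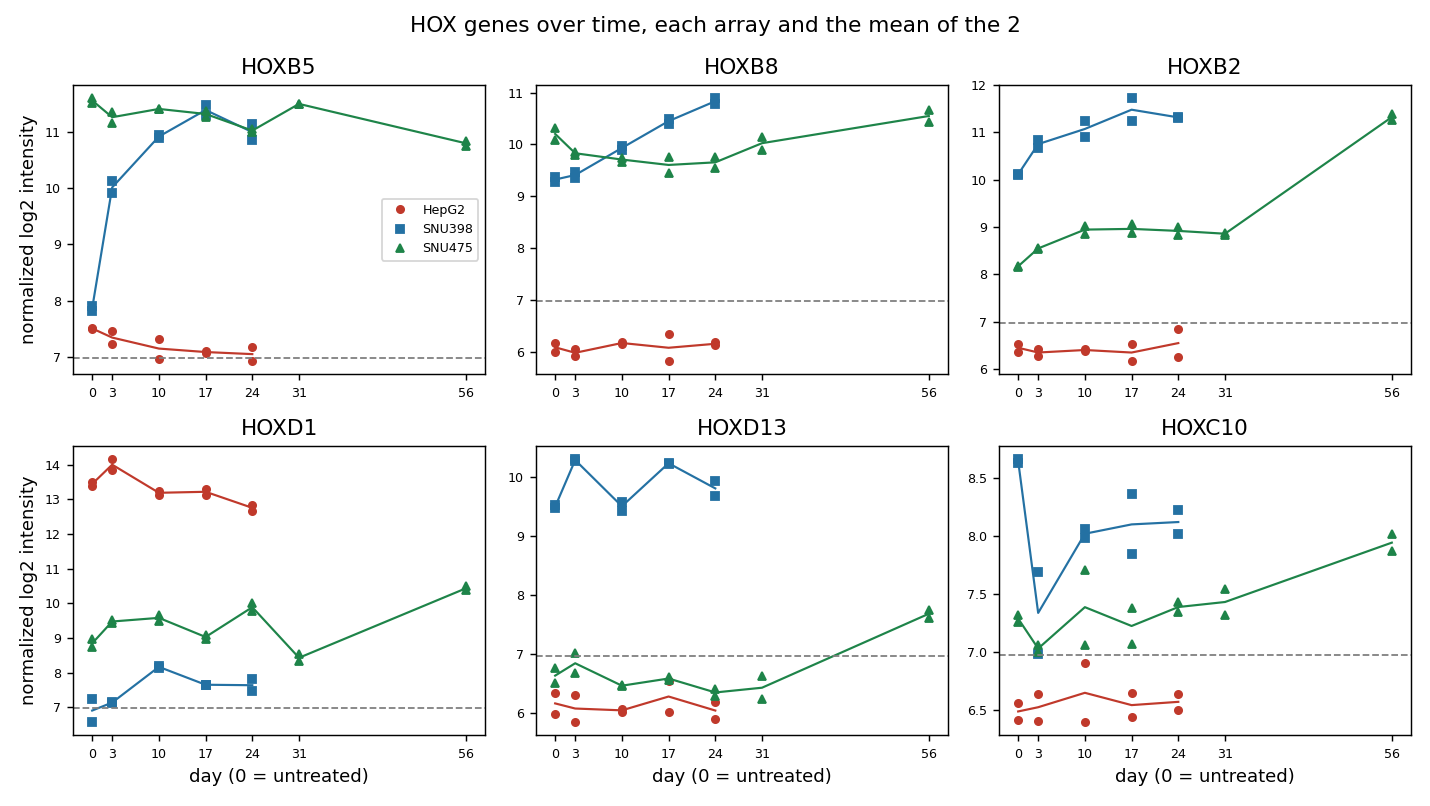
Normalized log2 intensity (y axis) of 6 HOX genes by day (x axis, 0 for untreated) in HepG2, SNU398 and SNU475, with a point for each array, a line through the mean of 2 and the background threshold dashed. HOXB5 climbs in SNU398 close to the height of SNU475, HOXB2 jumps in SNU475 at day 56, and HOXD1 stays highest in HepG2.

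In SNU475 the calls of HOX genes were most numerous at days 24 and 56, which were also the days with the most calls over all genes. Among the 26 genes, 1 was higher and 1 lower at day 3 (3.79% of all genes called, 2.18% as higher and 1.61% as lower). The counts were 2 and 2 at day 10 (20.6% of all genes called, 11.6% as higher and 8.99% as lower) and 1 and 2 at day 17 (14.7% of all genes called, 8.67% as higher and 5.99% as lower). They were 5 and 6 at day 24 (34.3% of all genes called, 18.5% as higher and 15.9% as lower) and 3 and 1 at day 31 (14.1% of all genes called, 7.13% as higher and 6.99% as lower). At day 56, 6 were higher and 8 lower (47.7% of all genes called, 22% as higher and 25.7% as lower). The HOX share at day 56, 53.8%, was near that of all genes. At day 24, VIM, FN1, ZEB1 and AFP were called lower as well (log2 -0.55, -0.50, -0.55 and -0.64), and the part of these markers in the HOX counts was not tested. Day 3 lies within 1 array set and the later days cross sets. With median scaling the splits from day 10 to day 56 were 2 and 4, 1 and 4, 4 and 9, 2 and 5, and 6 and 8. Without further normalization, where the all-gene median itself shifted by -0.21 to -0.27, they were 2 and 8, 1 and 7, 3 and 12, 0 and 10, and 4 and 12. Single arrays moved several counts. The total of 2 at day 3 became 1 without the first untreated array and 0 without the second or without either day 3 array. Day 10 gave 2 without its first array and day 17 gave 1 without its second. Day 24 gave 7 without the first untreated array and 6 without its own first array, and day 31 gave 1 or 2 without any of the 4 arrays compared.

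HOXB2 was the gene that rose most. It had 8.55 and 8.55 at day 3, 8.86 and 9.03 at day 10, 9.06 and 8.87 at day 17, 8.83 and 9.01 at day 24, 8.88 and 8.84 at day 31 and 11.38 and 11.27 at day 56, against 8.17 and 8.18 in untreated SNU475. Day 56 stood apart from a plateau over days 10 to 31, and each treated array lay above both untreated ones. The increases from day 10 to day 31 were between 1.61-fold and 1.73-fold, and at day 56 it was 8.88-fold (log2 3.15, SE 0.17, adjusted p 1.42e-15). The call at day 31 was lost without further normalization (adjusted p 0.0516). HOXD1 had 9.77 and 10.01 at day 24 and 10.37 and 10.49 at day 56, against 8.96 and 8.73 in untreated cells. It rose 1.67-fold at day 10, 2.06-fold at day 24 and 3-fold at day 56 (log2 1.59, SE 0.16, adjusted p 2.27e-09). Days 17 and 31, with 9.08 and 8.98 and 8.33 and 8.53, did not pass, and the call at day 3 was lost without the second untreated array (adjusted p 0.224). HOXB4 rose 1.61-fold at day 24 (log2 0.69, SE 0.16, adjusted p 0.000995).

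Posterior genes moved both ways at day 56. HOXC13 had 9.76 and 9.76 at day 56, against 11.03 and 10.88 in untreated SNU475, and fell 2.29-fold (log2 -1.19, SE 0.16, adjusted p 2.98e-07). HOXD10 had 8.83 and 8.80 at day 56, against 10.19 and 10.13 in untreated cells, and fell 2.53-fold (log2 -1.34, SE 0.15, adjusted p 1.83e-08). HOXD9 dropped below background, with 6.73 and 6.92 at day 56, against 8.0 and 7.74 in untreated cells, at least 1.86-fold lower (adjusted p 1.04e-05). HOXD13 did the opposite. It had 7.62 and 7.76 at day 56, against 6.76 and 6.51 in untreated cells, below background, and rose at least 1.6-fold (log2 1.05, SE 0.17, adjusted p 8.59e-06). HOXC10 was 1.57-fold higher (adjusted p 0.00842), a call lost without the second day 56 array (0.0665). HOXB5, the gene that rose in SNU398, fell in SNU475, with 11.05 and 10.997 at day 24 and 10.84 and 10.75 at day 56, against 11.60 and 11.51 in untreated cells. The decreases were 1.45-fold and 1.69-fold (adjusted p 0.00178 and 1.55e-05). HOXD11 fell 1.68-fold at day 24 (adjusted p 0.000938). HOXB6 was 2.19-fold higher at day 56 by the probe that stands for it (log2 1.13, SE 0.16, adjusted p 1.19e-06) and its second probe differed by -0.38 (adjusted p 0.132). The other 19 calls in SNU475 lay between -0.74 and 0.56 on the log2 scale, and each was lost when 1 array or another was left out. They were of HOXA2, HOXB4, HOXB6, HOXB7, HOXB8, HOXB13, HOXC4, HOXC6, HOXC9, HOXD8, HOXD10 and HOXD11.

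The latest day was also set against day 10, a comparison that uses no untreated arrays and lies within 1 array set in each line. SNU475 at day 56 had 8 HOX genes higher and 6 lower than at day 10 (45.6% of all genes called, 20% as higher and 25.6% as lower). HOXB2 was 5.19-fold higher (log2 2.38, SE 0.17, adjusted p 9.89e-13), HOXD13 at least 1.6-fold higher and HOXC13 2.02-fold lower (log2 -1.02, SE 0.16, adjusted p 4.41e-06). HOXD1 was 1.8-fold higher and HOXD10 1.96-fold lower. SNU398 at day 24 had 4 higher and 1 lower than at day 10 (25.5% of all genes called, 11.2% as higher and 14.3% as lower). HOXB8 was 1.87-fold higher (log2 0.90, SE 0.14, adjusted p 2.34e-05), and HOXB5 and HOXB2 did not pass the test between these days. The 4 other calls were lost without the second day 10 array, and the count became 1 without the second day 10 array, 2 without the first day 24 array and 1 without the second. HepG2 at day 24 had 3 higher and 0 lower (23.3% of all genes called, 10.7% as higher and 12.6% as lower), among them HOXC9, at least 1.59-fold higher (log2 0.70, SE 0.13, adjusted p 0.000213).

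**Figure D5:**
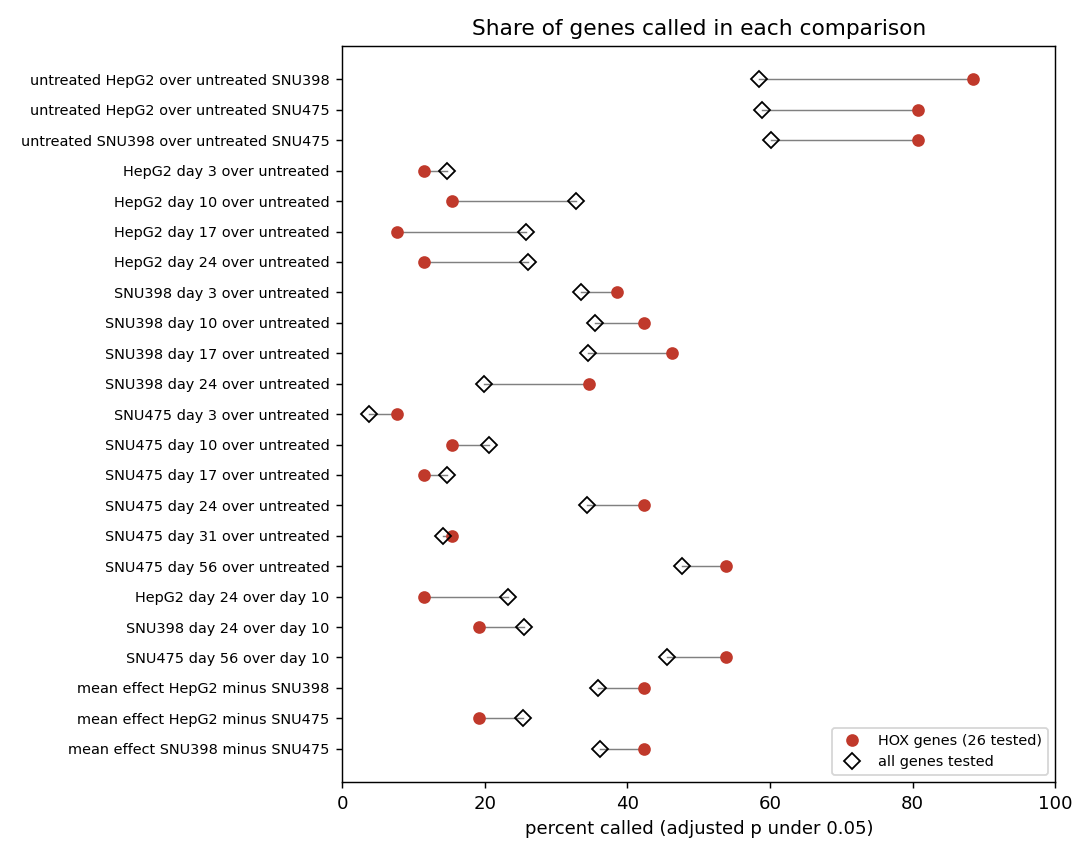
Percent of genes called at an adjusted p under 0.05 (x axis) in each of 23 comparisons (y axis), for the 26 tested HOX genes (filled) and all 15298 genes (open). Between untreated lines the HOX share is 80.8% to 88.5%, beside 58.5% to 60.1% of all genes. Shares with HepG2 also reflect that 17 of the 26 genes were not above background in its untreated cells.

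The mean change over days 3, 10, 17 and 24 was compared between lines. It was more positive in HepG2 than in SNU398 for 2 of 26 HOX genes and more negative for 9 (35.9% of all genes called, 17.8% more positive and 18.1% more negative). HepG2 against SNU475 gave 2 and 3 (25.4%, 12.7% and 12.7%), and SNU398 against SNU475 gave 8 and 3 (36.1%, 18.4% and 17.7%). HOXB5 differed most, by -3.32 between HepG2 and SNU398 (adjusted p 2.32e-16), where some groups were not above background. Between SNU398 and SNU475 it differed by 3.27 (SE 0.14, adjusted p 4.25e-16). HOXB8 differed by 1.34 in the same contrast (adjusted p 1.82e-07), HOXD11 by 0.92 and HOXD8 by -0.74. HOXC10 and HOXC13, both posterior, differed in opposite directions, by -0.72 and 0.72. These contrasts mix array sets. With median scaling HepG2 against SNU475 gave 3 and 3 and SNU398 against SNU475 gave 10 and 1, and without further normalization they gave 5 and 2 and 11 and 1. Without the first HepG2 or the first SNU398 untreated array the count for HepG2 against SNU398 was 7. HepG2 against SNU475 gave 3 without the second HepG2 untreated array. SNU398 against SNU475 gave 5 without the first untreated array of either line and 7 without the second of SNU398.

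The partners and neighbours of the HOX genes were counted as lists. Of the TALE class cofactors, the PBX, MEIS and PKNOX proteins that bind DNA with HOX, 8 of 9 were measured. All 8 were lower in untreated HepG2 than in SNU398, beside 31.5% of all genes called lower. Their median was -1.14, beside -0.03 over all genes. Against SNU475, 4 were lower, beside 30.3% of all genes. PKNOX2, counted in both, was not above background in any untreated line (6.375 in HepG2, 6.948 in SNU398 and 6.868 in SNU475). MEIS2 had 9.35 and 9.55 in HepG2, against 11.79 and 11.83 in SNU398 and 11.76 and 11.72 in SNU475, 5.13-fold and 4.9-fold lower in HepG2 (adjusted p 3.63e-14 and 7.08e-14). Over all genes, 8.15% to 18.1% were called higher and 6.54% to 14.7% lower on the treated days in HepG2, 11% to 20% and 8.9% to 16.5% in SNU398, and 2.18% to 22% and 1.61% to 25.7% in SNU475, and the counts of this and the next lists stand beside these shares. Of the 8 cofactors 0 or 1 rose and 0 to 2 fell on each day in HepG2, and in SNU398 1 fell at day 3 and none was called later. In SNU475 3 rose and 2 fell at day 56, and none changed 2-fold from untreated cells on any day. MEIS1 was 2.29-fold higher at day 56 than at day 10 in SNU475 (adjusted p 4.33e-09).

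Other homeobox genes of the ANTP class, to which HOX genes belong, were measured for 7 of 13, and the rest were not above background. CDX2, MEOX2 and GBX2 were above background in SNU398 alone among the untreated lines. Against untreated cells 0 or 1 rose and 0 or 1 fell on each day in HepG2. In SNU398 3 rose at day 3 and 1 at day 17, 1 or 2 fell on each day, and in SNU475 none rose and 0 or 1 fell. PDX1, the master regulator of the pancreas, had 7.67 and 7.58 at day 3 and 7.27 and 7.48 at day 24 in SNU398, against 8.94 and 9.07 in untreated cells. It fell on all 4 days, by 2.6-fold at day 3 and 3.6-fold at day 17 (log2 -1.85, SE 0.18, adjusted p 5.52e-09). In HepG2 it went the other way, with 7.77 and 7.47 at day 24, against 6.14 and 6.53 in untreated cells, below background, at least 1.57-fold higher (log2 1.28, SE 0.18, adjusted p 3.72e-06).

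Of 19 non-coding RNAs of the clusters 3 were measured, HOTAIR, HOTTIP and HOXA11-AS. HOTAIR, transcribed from the HOXC cluster and known for its link to Polycomb, was 2.64-fold lower in untreated SNU398 than in SNU475. It had 8.14 and 8.07 in SNU398 at day 24, against 7.26 and 6.99 in untreated cells, a rise of 0.98 (adjusted p 1.54e-06). HOXA11-AS, the antisense partner of a posterior HOXA gene, had 8.18 and 8.33 at day 24 and 8.90 and 8.89 at day 56 in SNU475, against 6.84 and 6.77 in untreated cells, below background. It rose at least 2.43-fold at day 24 and at least 3.8-fold at day 56 (log2 2.09, SE 0.12, adjusted p 2.88e-14), and was 2.15-fold higher at day 56 than at day 10, within 1 array set. None of the 3 changed in HepG2 on any day, 1 or 2 rose on each day in SNU398, and in SNU475 2 rose at days 10, 17 and 24 while 1 rose and 1 fell at day 56.

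Genes that flank the clusters were measured for 17 of 18. In SNU398 1 to 4 rose and 3 to 7 fell on each day, in HepG2 0 to 3 rose and 0 to 5 fell, and in SNU475 0 to 4 rose and 0 to 7 fell. At day 10 in SNU398, for example, 3 of 17 were higher and 7 lower, beside 20% and 15.4% of all genes. PRAC1, a small gene beside HOXB13 known from prostate and colon, was not above background in untreated SNU398, at 6.36 and 6.36. It had 7.63 and 7.56 at day 10, 8.46 and 8.49 at day 17 and 9.64 and 9.60 at day 24. Each day lay above the one before, and the rise was at least 1.54-fold, at least 2.82-fold and at least 6.26-fold (adjusted p 5.01e-08, 1.91e-12 and 1.21e-16). Within the array set of treated SNU398, day 24 was 4.07-fold above day 10 (log2 2.02, SE 0.14, adjusted p 1.03e-11), while HOXB13 next to it was not called. SKAP1, at the other end of HOXB and known as a T cell adaptor, had 9.77 and 9.97 at day 24 in SNU475, against 7.56 and 7.59 in untreated cells, 4.9-fold higher (log2 2.29, SE 0.12, adjusted p 8.8e-15). LNPK, beside HOXD, fell 2.52-fold on the same day (adjusted p 2.26e-08).

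All 13 trithorax and retinoic acid regulators on the list were measured. RARB, a retinoic acid receptor, was not above background in untreated HepG2 (6.01 and 6.07), against 9.14 and 9.25 in SNU398 and 9.10 and 8.96 in SNU475. CYP26B1, which breaks retinoic acid down, rose 2.46-fold in SNU398 at day 10 (log2 1.30, SE 0.15, adjusted p 9.14e-08). In SNU475 at day 56 CYP26B1 had 10.92 and 11, against 8.93 and 8.54 in untreated cells, 4.69-fold higher (log2 2.23, SE 0.15, adjusted p 6.28e-13). RARB was 2.01-fold higher on that day (adjusted p 2.86e-07) and KMT2A, the trithorax methyltransferase of HOX promoters, 2.08-fold lower (adjusted p 4.69e-08). Against day 10, CYP26B1 was 5.88-fold and RARB 3.3-fold higher, within 1 array set. Over the list 1 to 5 rose and 0 or 1 fell on each day in HepG2, 1 to 6 rose and 0 to 3 fell in SNU398, and 0 to 3 rose and 0 to 6 fell in SNU475. The highest of these counts, 5 and 6 of 13 higher at day 10 in HepG2 and SNU398 and 6 of 13 lower at day 56 in SNU475, stand beside 18.1%, 20% and 25.7% of all genes. Cell type markers also moved at day 56 in SNU475. Of the 5 hepatocyte markers AFP alone was called, with 7.22 and 7.06 at day 56, against 8.74 and 8.77 in untreated cells, 3.07-fold lower. Of the 4 mesenchymal markers CDH2 was 2.25-fold lower and FN1 1.54-fold higher, and VIM and ZEB1 did not pass. Against day 10, VIM, FN1 and ZEB1 were called higher (log2 0.65, 1.14 and 1.07) and CDH2 lower (-1.15). The part of these markers and of the regulators above in the HOX differences of day 56 was not tested.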

How the data were processed

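Total RNA of HepG2, SNU398 and SNU475 was hybridised to Illumina arrays, 34 in 17 groups of 2. The authors deposited linear intensity values. Per the labels' protocols, RNA was taken up in Trizol and cleaned on RNeasy columns, and biotinylated cRNA was made with the MessageAmp kit. How the authors normalized them: not given in the sources used here. Another deposited table, with 72 columns named by array barcode, was not used since barcodes could not be matched to samples through any label. A normexp background correction (offset 50), log2 and quantile normalization over all arrays were applied to the deposited intensities. A probe above 6.974 (mode 6.484 of the background peak, spread 0.2981, upper 5% tail) on both arrays of a group was above background. The kept probe with the highest mean stood for a gene, and its other probes were tested in a fit of every kept probe.

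With limma 3.58.1 (R 4.3.3), each gene received a linear model of 17 group means, with 17 residual and 10.9 prior degrees of freedom. Its moderated two-sided p-values were adjusted by Benjamini-Hochberg within each of 23 comparisons. The 22 HOX genes above background in a group and called with a log2 fold change of at least 1 in any comparison were to be described in full, and the others by counts and ranges. For some of the 22, such as HOXB4 and HOXD8, array values are not printed here. The pipeline was tested on simulated data. Members and lists were chosen with earlier results of these data known. The detection p-values foreseen for the filter exist in the unmatched columns alone, so the background peak was used. Replicate arrays correlated at Pearson's r of 0.9916 to 0.9953 across probes, which are not independent, and their number limits the precision. Replicate numbers did not pair samples: over 41 pairs of groups the correlation of deviations exceeded 0.1 in 1.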

Additional observations from a re-analysis of the deposited data

Results flagged for a closer look

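Mean changes over days 3, 10, 17 and 24 that differed between 2 lines in limma's interaction contrast are given here with the adjusted p in parentheses, and with the log2 difference where all groups were above background. Each group has 2 arrays. Between HepG2 and SNU398 the change differed for HOXA2 (0.00185), HOXB2 (3.52e-05), HOXB5 (2.32e-16), HOXB6 (log2 -0.56, 0.0173), HOXB8 (0.000193), HOXC8 (0.00811), HOXC10 (0.00448), HOXC13 (log2 -0.50, 0.0274), HOXD1 (0.000258), HOXD4 (0.00292) and HOXD13 (0.0367). The log2 difference of HOXB6 ran from -0.76 to -0.18 under the alternatives, and its call held in 27 of 30. Of the genes named, HOXC8 and HOXC10 had the more positive change in HepG2. Between HepG2 and SNU475 it differed for HOXB2 (0.00473), HOXB8 (0.0192), HOXD1 (log2 -0.80, 0.00123), HOXD8 (0.00822) and HOXD11 (0.00753), with HOXB8 and HOXD11 more positive in HepG2. Between SNU398 and SNU475 it differed for HOXA2 (log2 0.51, 0.02), HOXB4 (log2 -0.45, 0.0448), HOXB5 (log2 3.27, 4.25e-16), HOXB8 (log2 1.34, 1.82e-07), HOXC10 (log2 -0.72, 0.0129), HOXC13 (log2 0.72, 0.00193), HOXD4 (0.0212), HOXD8 (log2 -0.74, 0.000432), HOXD10 (log2 0.44, 0.0429), HOXD11 (log2 0.92, 0.00031) and HOXD13 (0.0292), with HOXB4, HOXC10 and HOXD8 more negative in SNU398. HOXB5 and HOXB8 kept their calls between SNU398 and SNU475 under all alternatives that tested them, and the call of HOXB4 was lost in 17 of its alternatives. HOXD10 kept its call between SNU398 and SNU475 in 15 of 29 alternatives, and HOXD13 between HepG2 and SNU398 in 19 of 29. Some of the other calls were lost in fewer alternatives. SNU398 treated and untreated arrays, and SNU475 arrays before and from day 10, belong to different array sets, and the part of the sets in these differences was not tested.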

How the results depend on the processing

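The 206 called HOX values gave 3251 values under the alternatives, of which 2938 kept direction and call, 313 lost the call and 0 reversed. The 71 of at least 2-fold kept theirs in 1016 of 1016, as did 518 of 518 values of list genes called at 2-fold or more after treatment. Both sets were picked for their size in these same data. The fit of every kept probe followed the probe that stands for the gene, so a disagreeing second probe could not count there. The rise of HOXB6 at day 56 in SNU475, log2 1.13, was as low as 0.38 under the alternatives. Of the counts of HOX genes, 202 of 247 stayed within 1.5 times. Asking for a signal above background on all 34 arrays tests fewer genes and gave 2, 3 and 3 calls for the untreated pairs (HepG2 against SNU398, HepG2 against SNU475, SNU398 against SNU475), 1, 1, 0 and 1 on the 4 days in HepG2, 3, 3, 3 and 2 in SNU398, 0, 0, 0, 3, 1 and 2 on the 6 days in SNU475, 1, 0 and 2 for late days against day 10 in HepG2, SNU398 and SNU475, and 2, 0 and 2 for the mean changes between the same pairs. Leaving out 1 array gave, in the same order, 21 to 23, 20 to 21 and 19 to 21 for untreated pairs, 0 to 4, 2 to 3, 0 to 1 and 2 to 4 in HepG2, 6 to 10, 7 to 9, 8 to 12 and 4 to 7 in SNU398, 0 to 1, 2 to 4, 1 to 2, 6 to 8, 1 to 2 and 10 to 12 in SNU475, 2 to 3, 1 to 4 and 12 to 14 for late days and 7 to 12, 3 to 5 and 5 to 11 for mean changes. Where this left a group with 1 array, it was assumed to vary like the other groups. The cause of the following moves was not tested. Without further normalization SNU475 had 10, 8 and 10 calls at days 10, 17 and 31, and with median scaling 5 and 7 at days 17 and 31. Without background correction HepG2 had 2 and 1 at days 10 and 17 and SNU475 had 7 at day 31. Offset 16 gave 0 for SNU475 at day 3, 5 and 3 for late HepG2 and SNU398, and 7 for the mean change of SNU398 against SNU475. Without a filter on dim probes HepG2 had 1 at day 17, SNU475 1 at day 3 and late SNU398 3. Each line fitted on its own gave 1, 1 and 0 in HepG2 at days 3, 10 and 17 and 8 in SNU475 at day 31. Every kept probe on its own and an intensity trend each gave 1 in HepG2 at day 17. With 1 of 2 arrays enough to be above background, HepG2 had 14 HOX genes at day 3 and 11 at day 10. The replicate number did not pair the samples, and as a replicate block it gave 1 call in HepG2 at day 17 (2 without it), 15 in SNU475 at day 56 (14 without it) and 4 for late HepG2 (3 without it), and it changed no other count of HOX calls. Signal over background limits HOXB9, HOXC12, HOXD12 and most HepG2 values.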
